A study of Mus musculus with 7 samples.

Results

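The genes described here encode subunits of the transcription factor NF-kB (Nfkb1, Nfkb2, Rela, Relb and Rel) and proteins that NF-kB induces and that feed back on it or limit its effects (Nfkbia, Nfkbiz, Tnfaip3, Bcl3 and Ier3). Of these 10 listed genes, 9 were measured among the 22180 genes tested, namely 4 subunits and all 5 feedback genes. Nfkb1 was not analysed here. A member was taken from probe sets annotated with its symbol alone, and each of the 9 had 1 such probe set. RNA came from mouse colon macrophages, sorted out of lamina propria cells as CD45+ CD11b+ CD64+ MHCII+ Ly6C- cells. All mice had received 5% dextran sulphate sodium (DSS), which injures the colon epithelium, for 5 days and then normal water for 3 days. All carried Rictorfl/fl alleles, Rictor being a subunit of the kinase complex mTORC2. The control samples (LysM+/+, 3 arrays) had no cre recombinase, and the LysM+/cre samples (4 arrays) carried 1 copy of cre at Lyz2, also called LysM, a gene expressed by monocytes, macrophages and neutrophils. The labels count 3 or 4 mice a group and give no strain, age or sex, nor whether an array held RNA of more than 1 mouse. No group carried cre without floxed Rictor, so the effects of Rictor loss, of cre and of its insertion cannot be told apart.

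The values are log2 intensities of Affymetrix Mouse Gene 2.0 ST arrays, and the number of arrays limits their precision. Whether the arrays had been normalized to each other is not stated in the labels, and their medians lay between 5.16 and 5.22. Rictor itself did not separate the genotypes (log2 difference 0.12 ± 0.13 SE, adjusted p = 0.749 in limma). Which part of the gene its probe set covers is not given, so this value does not check the labels. The mean log2 level of 13 macrophage markers, Cd68, Csf1r and C1qa among them, lay between 10.98 and 11.35 on the 7 arrays. Single markers differed more than this mean, with 7 higher and 6 lower with cre. Of the 13, 3 had an unadjusted limma p under 0.05 (23.1%, against 11.5% of all genes). They were Fcgr1 (0.97), which encodes the sort marker CD64, Itgam (0.53), which encodes CD11b, and Cd68 (-0.20, without overlap). LysM+/+ array 2 stood apart from its group. It had the highest mean of 19 immediate early genes (10.28, against 9.20 to 9.78 on the other arrays) and the lowest mean of 11 neutrophil markers (5.88, against 7.09 to 9.20). LysM+/cre array 3 lay at the opposite end of both measures. Its immediate early mean (9.20) was the lowest, with 9.46 as the next, and its neutrophil mean (9.20) the highest, with 7.98 as the next. The lists of other genes described below were recounted without LysM+/+ array 2 only. Without that array 1210 of all 22180 genes were higher and 1000 lower with cre at an unadjusted limma p under 0.05.

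NF-kB factors are dimers that inhibitors of the IkB family hold in the cytoplasm of resting cells. Signals from Toll-like receptors, the TNF receptor or the IL-1 receptor activate IkB kinase, the inhibitor is degraded, and the freed dimer enters the nucleus and binds kappaB sites. Among the genes it induces are its own inhibitors, which makes the response self-limiting. In gut macrophages this pathway drives inflammatory cytokine genes during colitis.

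The promoters of the members themselves were searched for kappaB sites. RefSeq promoter windows (GRCm38.p6, 250 bases before to 50 after a transcript start) were listed for 7 of the 10 genes, as 10 windows, 3 of them of Nfkb2 and 2 of Tnfaip3. Relb, Nfkbiz and Nfkb1 had no entry. The 10-base kappaB consensus, searched on both strands with overlapping matches merged, was present in 4 of 5 windows of subunit genes and 4 of 5 windows of feedback genes, against 8.46% of all 32851 windows. The feedback genes were listed as genes that NF-kB induces, so their share is a description only. The windows of 1 gene are not independent, and 1 Nfkb2 site lies in both of the overlapping windows of that gene. The window of Rela had no match. The AP-1 site TGANTCA, a target of FOS and JUN factors, was found in 1 of 5 windows of each class, against 7.81% of all windows. The match in the Bcl3 window, GGGAAGTCCC, begins after the transcript start. For each of the other 5 genes the stretch with the upstream match nearest to a transcript start is shown, 5′ to 3′ on the strand of the gene and with the kappaB matches in capitals. These stretches set side by side the matches to the consensus in members whose array values are described below. Tnfaip3 has a further upstream match that is not shown, and so has Nfkb2 in its other windows. A match describes the sequence and is no evidence that NF-kB was bound in these cells.
Nfkb2 (chr19:46304668-46304736, plus strand): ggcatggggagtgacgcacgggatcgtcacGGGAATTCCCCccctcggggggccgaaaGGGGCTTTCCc
Rel (chr11:23771021-23771091, minus strand): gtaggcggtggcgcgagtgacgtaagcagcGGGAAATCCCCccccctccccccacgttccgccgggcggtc
Nfkbia (chr12:55492648-55492706, minus strand): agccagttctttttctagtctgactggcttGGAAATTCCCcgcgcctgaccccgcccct
Tnfaip3 (chr10:19015411-19015452, minus strand): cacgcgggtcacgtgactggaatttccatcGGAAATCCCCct
Ier3 (chr17:35821591-35821660, plus strand): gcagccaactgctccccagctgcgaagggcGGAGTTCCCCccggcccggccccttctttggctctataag

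All 4 measured subunits had lower means on the LysM+/cre arrays, by small amounts, and none passed the test. Their log2 differences ran from -0.18 to -0.12 with a median of -0.17, against a median of 0.0044 over all genes. No gene of the 22180 passed an adjusted p of 0.05 in limma (0%, smallest adjusted p = 0.195), while 2549 genes, or 11.5%, had an unadjusted limma p under 0.05. Of the subunits 0 of 4 reached even that unadjusted threshold. Of all genes 48.6% had a lower mean with cre, so a shared sign among 4 genes of 1 pathway is a description only.

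Rela (probe set 17356490) encodes p65, the main activating subunit of the canonical pathway. Its log2 intensity was 10.53, 10.36 and 10.21 on the LysM+/+ arrays and 10.21, 10.05, 10.28 and 10.27 on the LysM+/cre arrays. The genotypes overlapped, since LysM+/+ array 3 lay among the cre arrays. The difference was -0.17 with a 95% interval from -0.40 to 0.065 (adjusted p = 0.545 in limma), and it was -0.085 without LysM+/+ array 1.

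Relb (probe set 17487325) encodes the partner of p52 in the noncanonical pathway. It lay at 9.30, 9.23 and 9.21 without cre and at 9.07, 8.84, 9.18 and 9.18 with cre. Its genotypes did not overlap, but the lowest control and the highest cre array were nearly level, and LysM+/cre array 2 was the lowest of all. The difference was -0.18 (95% interval -0.40 to 0.048, adjusted p = 0.511 in limma), and it was -0.10 without LysM+/cre array 2.

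Nfkb2 (probe set 17359967) encodes p100, which is processed to p52. It varied more between control arrays than between genotypes, with 10.15, 9.75 and 10.41 without cre and 9.91, 9.67, 10.15 and 10.04 with cre. LysM+/+ array 2 and LysM+/cre array 2 were the lowest of their groups. The difference was -0.16 (95% interval -0.59 to 0.26, adjusted p = 0.737 in limma), and it was -0.34 without LysM+/+ array 2 and -0.010 without LysM+/+ array 3.

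Rel (probe set 17261107) encodes c-Rel, a subunit prominent in lymphoid and myeloid cells. It had 11.98, 12.003 and 12.19 without cre and 12.06, 11.90, 11.66 and 12.15 with cre. LysM+/cre arrays 2 and 3 lay under all controls, array 3 the lowest, and LysM+/cre arrays 1 and 4 lay within their range. The difference was -0.12 (95% interval -0.42 to 0.19, adjusted p = 0.744 in limma) and -0.021 without LysM+/cre array 3. The intervals of all 4 subunits include both no difference and a fall of 0.40 or more, so none of them is shown to be level between genotypes.

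**Figure D1:**
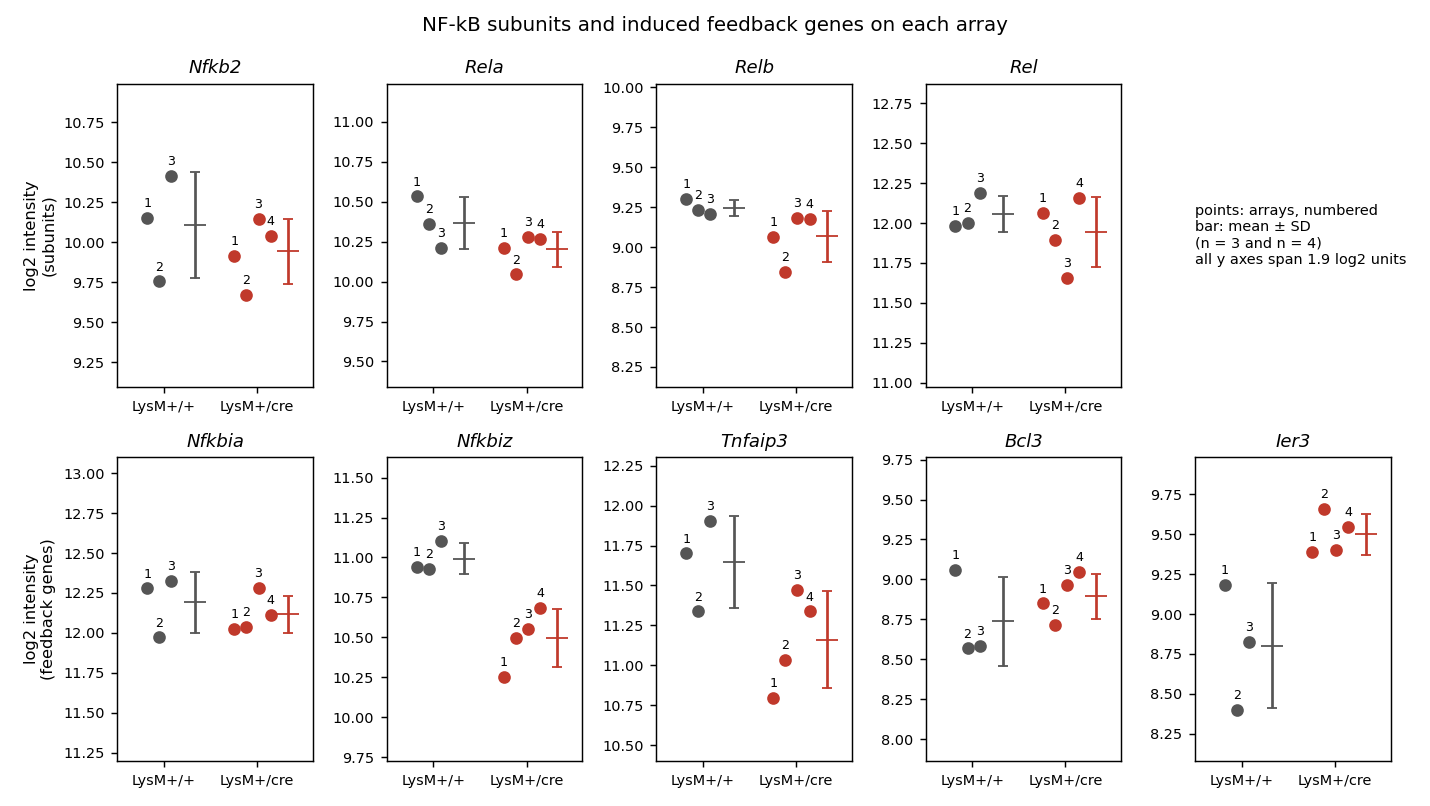
Log2 intensity of each member on each array (y axis, every panel spanning the same range) for LysM+/+ (grey, n = 3) and LysM+/cre (red, n = 4), with the mean and SD beside the points and the array number above each. The 4 subunits in the upper row overlap or nearly touch between genotypes, whereas in the lower row Nfkbiz lies lower and Ier3 higher on all 4 LysM+/cre arrays.

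The feedback genes had no shared direction. Nfkbiz and Tnfaip3 were lower with cre by 0.50 and 0.49 on the log2 scale, Ier3 was higher by 0.70, and Nfkbia and Bcl3 differed by -0.076 and 0.16. No member passed the adjustment over all genes. The unadjusted limma threshold of 0.05 was passed by 3 of 5 feedback genes, 2 lower and 1 higher, where the background was 4.93% of all genes lower and 6.56% higher. With array medians set equal that background was 858 genes lower and 1786 higher, in place of 1093 and 1456, and the same 3 members were past the threshold.

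Nfkbiz (probe set 17330967) encodes IkB-zeta, a nuclear IkB protein that NF-kB induces and that is needed for the induction of secondary genes such as Il6. It was 10.94, 10.93 and 11.10 without cre and 10.25, 10.49, 10.55 and 10.68 with cre. Every LysM+/cre array lay under every control array, and LysM+/cre array 1 was the lowest. The means were 10.99 ± 0.097 (SD, n = 3) and 10.49 ± 0.18 (SD, n = 4). The difference of -0.50 ± 0.11 (SE), a factor of 1.41, gave an adjusted p of 0.333 in limma and an exact permutation p of 0.0286 (two-sided), the smallest that 3 against 4 arrays can give. Leaving out single arrays gave -0.56 to -0.42, and it was -0.53 without LysM+/+ array 2.

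Tnfaip3 (probe set 17239597) encodes A20, a ubiquitin-editing enzyme that shuts off signalling to IkB kinase. It had 11.70, 11.34 and 11.91 without cre and 10.80, 11.03, 11.47 and 11.34 with cre. LysM+/cre array 3 lay above LysM+/+ array 2 and LysM+/cre array 4 level with it, while LysM+/cre arrays 1 and 2 lay under all controls. The difference was -0.49 ± 0.20 (SE, adjusted p = 0.430 in limma, two-sided exact permutation p = 0.114). It was -0.36 without LysM+/+ array 3 and -0.64 without LysM+/+ array 2.

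Ier3 (probe set 17337228) encodes a short-lived protein that NF-kB and growth factor signals induce and that modulates apoptosis and ERK signalling. It stood at 9.18, 8.40 and 8.82 without cre and at 9.39, 9.66, 9.40 and 9.55 with cre. The 4 LysM+/cre arrays were close together and above all controls, which were spread more widely and had LysM+/+ array 2 as the lowest. The means were 8.80 ± 0.39 (SD, n = 3) and 9.50 ± 0.13 (SD, n = 4), a difference of 0.70 ± 0.18 (SE) or a factor of 1.62. The adjusted p in limma was 0.362 and the two-sided exact permutation p 0.0286. Without LysM+/+ array 2 the difference was 0.50, and without LysM+/+ array 1 it was 0.89.

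Nfkbia (probe set 17281219) encodes IkB-alpha, the classical inhibitor that NF-kB resynthesises after activation. It had 12.28, 11.97 and 12.33 without cre and 12.03, 12.04, 12.28 and 12.11 with cre, with both genotypes over much the same range and the lowest value on LysM+/+ array 2. The difference was -0.076 (95% interval -0.34 to 0.18, adjusted p = 0.806 in limma). It was -0.19 without LysM+/+ array 2 and -0.0097 without LysM+/+ array 3.

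Bcl3 (probe set 17487457) encodes a nuclear IkB protein that binds p50 and p52 homodimers. It had 9.06, 8.57 and 8.58 without cre and 8.85, 8.72, 8.96 and 9.05 with cre. LysM+/+ array 1 was as high as the highest cre array, and the other controls lay under all cre arrays. The difference was 0.16 (95% interval -0.18 to 0.50, adjusted p = 0.690 in limma). It was 0.32 without LysM+/+ array 1, 0.072 without LysM+/+ array 2 and 0.080 without LysM+/+ array 3. Bcl3 and Relb lie on the same chromosome in RefSeq, with 10 protein-coding genes between them, and their differences had opposite signs.

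Over all 9 members the genotypes did not overlap for 3 genes, Ier3 on the higher side and Nfkbiz and Relb on the lower, against 8.79% of all genes in either direction. Relb owes its place to a narrow margin. Without LysM+/+ array 2 all 4 subunits were still lower, and the same 3 feedback genes were past the unadjusted threshold. Of all 22180 genes 2210 were past it without that array.

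**Figure D2:**
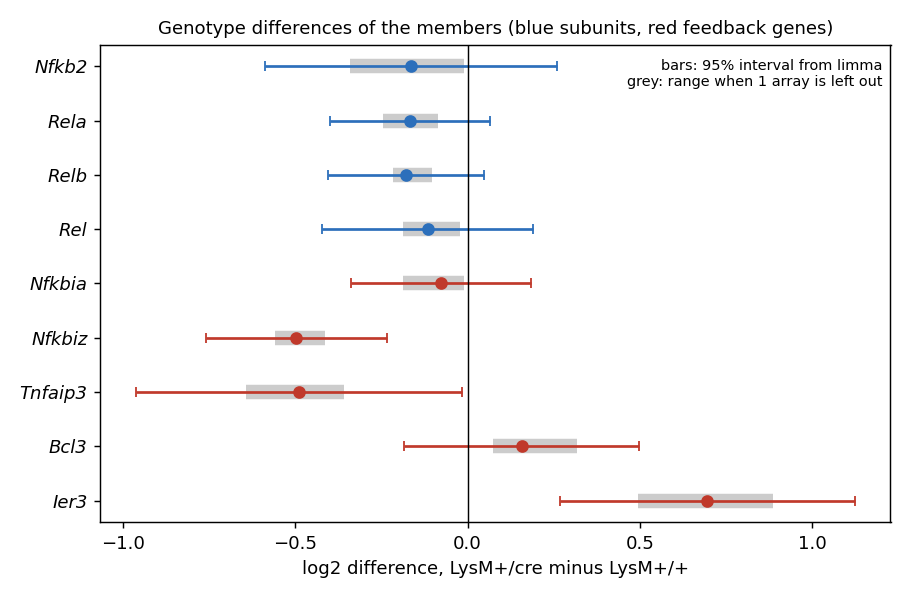
Log2 difference of each member, LysM+/cre minus LysM+/+ (x axis), with its 95% interval from limma and, in grey, the range when 1 of the 7 arrays is left out. The intervals of Nfkbiz, Tnfaip3 and Ier3 lie to 1 side of 0 before adjustment over all genes, and those of the 4 subunits, Nfkbia and Bcl3 cross it.

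Set against each other, the classes differed little in their centre and much in their spread. The median difference was -0.17 for the subunits and -0.076 for the feedback genes, a gap of 0.089, and without LysM+/+ array 2 the gap was -0.0077. The subunits covered a narrow range, from -0.18 to -0.12, and the feedback genes ran from -0.50 to 0.70. For each array the members of a class were centred on their 7-array means and averaged. The feedback mean minus the subunit mean was 0.045, -0.19 and -0.052 on the LysM+/+ arrays and -0.15, 0.18, 0.12 and 0.041 on the LysM+/cre arrays. The genotypes overlapped in this measure, with means of -0.066 ± 0.12 (SD, n = 3) and 0.049 ± 0.14 (SD, n = 4). No p is given for it, since the members were chosen with results of these data known. A mean over the 5 feedback genes hides the opposite signs of Ier3 and of Nfkbiz with Tnfaip3, as the plot of Nfkbiz against Ier3 shows.

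**Figure D3:**
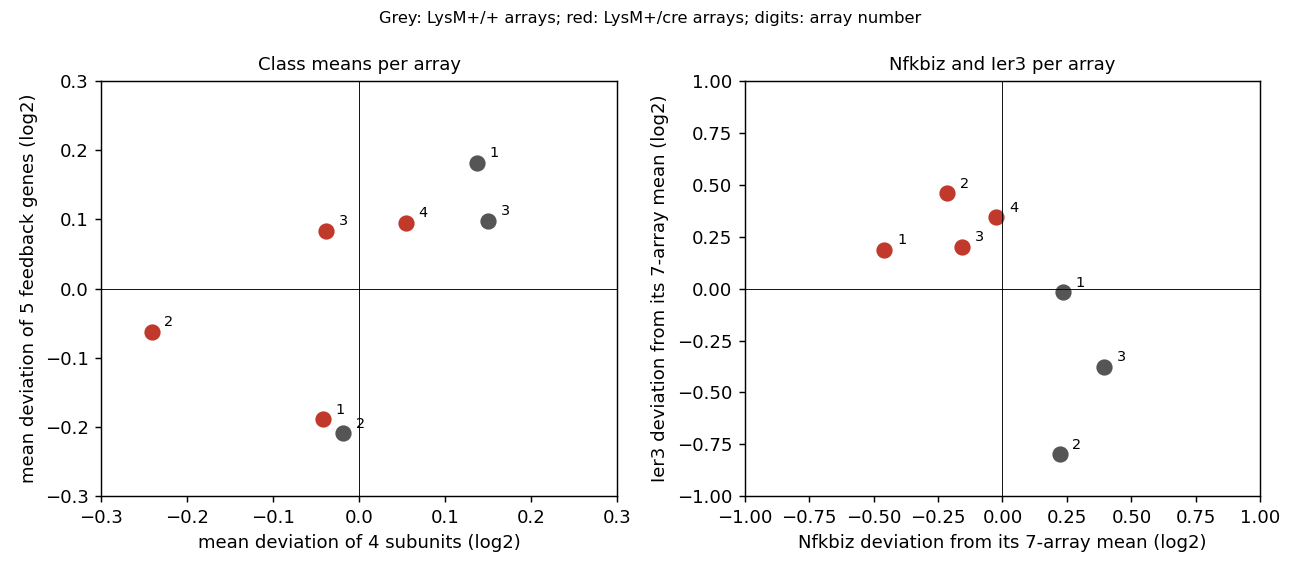
Left, mean deviation of the 4 subunits (x axis) and of the 5 feedback genes (y axis) from their 7-array means, in log2 units, 1 point per array. Right, the deviation of Nfkbiz (x axis) and Ier3 (y axis) on the same arrays; the LysM+/cre arrays (red) all lie in the upper left and the LysM+/+ arrays (grey) to the lower right, while in the left panel the genotypes mix.

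The rest of the pathway was followed from receptor to target. None of its genes passed the adjusted test. Of 15 measured receptors and proximal adaptors, 13 had higher and 2 lower means with cre, with a median of 0.19, and 0 of 15 had an unadjusted p under 0.05 in limma. Without LysM+/+ array 2 that balance was 9 higher and 6 lower, with a median of 0.068. The smallest p-values were those of Traf2 (0.20), an adaptor of the TNF receptor, Tirap (0.30) and Ticam1 (0.27), adaptors of Toll-like receptors. Traf2 was at 0.12 without LysM+/+ array 3 and Ticam1 at 0.18 without LysM+/cre array 4. Of 9 genes of kinases and kinase partners around IKK and TAK1, 2 were past the unadjusted threshold, both lower, or 22.2% against 11.5% of all genes. These were Map3k8 (-0.53 ± 0.18 SE), which encodes TPL2, a kinase held by p105 that signals to ERK, and Tab1 (-0.51 ± 0.18 SE), a partner of TAK1. Tab1 was no longer past the threshold without LysM+/+ array 1 (-0.46), LysM+/+ array 2 (-0.36) or LysM+/cre array 3 (-0.43). Map3k8 was 8.63, 9.35 and 8.68 without cre and 8.30, 8.44, 8.43 and 8.25 with cre, so its genotypes did not overlap. The highest value was on LysM+/+ array 2, without which the difference was -0.30. Map3k8 was past the unadjusted threshold in 13 of 14 alternatives, the exception being without LysM+/cre array 4 (-0.50). Map3k7, which encodes TAK1 itself, had -0.11, and without single arrays -0.17 (LysM+/cre array 1) and -0.068 (LysM+/cre array 4). The median of the 9 genes was -0.0031 with 4 higher and 5 lower. Without LysM+/+ array 2 it was -0.086 with 2 higher and 7 lower. Of these 1 lower gene was past the threshold, as were 1000 lower genes of all 22180. In the noncanonical branch 0 of 7 genes reached the unadjusted threshold, and the smallest p-values belonged to Birc3 (-0.25), Ltbr (0.20) and Cd40 (-0.25). Birc3 was at -0.11 without LysM+/+ array 2 and Cd40 at -0.12 without LysM+/+ array 1.

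Of 17 further inhibitors, 9 had higher and 8 lower means, with a median of 0.059. The unadjusted threshold was passed by 2 of the higher and 2 of the lower genes, or 23.5% against 11.5% of all genes. Without LysM+/+ array 2 the balance turned to 7 higher and 10 lower, with a median of -0.0023. In each direction 1 gene was past the threshold, against 1210 higher and 1000 lower of all 22180 genes. Otulin, which removes linear ubiquitin chains, was 7.08, 6.90 and 6.79 without cre and 7.65, 7.58, 7.23 and 7.70 with cre. All LysM+/cre arrays lay above the controls, with a difference of 0.62 ± 0.13 (SE, adjusted p = 0.333 in limma). Nfkbid, which encodes the nuclear IkB protein IkB-NS, had 9.12, 9.50 and 8.92 without cre and 8.74, 8.79, 8.75 and 8.79 with cre. The LysM+/cre arrays were nearly identical and all under the controls (-0.41 ± 0.13 SE, adjusted p = 0.401 in limma), and without LysM+/+ array 2 the difference was -0.25. Tnip3, which encodes the A20-binding protein ABIN-3, differed by -0.82 ± 0.29 (SE, adjusted p = 0.414 in limma), also without overlap. Its margin was narrow, with 9.59 on the lowest control and 9.50 on the highest LysM+/cre array. The lowest value was on LysM+/cre array 2, without which the difference was -0.58. Tnip3 was past the unadjusted threshold in 11 of 14 alternatives. IkB-zeta and IkB-NS, both nuclear IkB proteins, thus had lower means with cre, while Bcl3, another, did not.

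The other 28 NF-kB-induced genes had a median of -0.21, with 10 higher and 18 lower. Unadjusted p-values under 0.05 belonged to 4 of them, all lower, or 14.3% against 11.5% of all genes. This list depended on LysM+/+ array 2, without which 26 were lower and 2 higher, with a median of -0.29. The unadjusted threshold was then passed by 6 lower genes and 1 higher gene, against 1000 lower and 1210 higher of all 22180 genes. The adhesion molecule gene Icam1 differed by -0.53 ± 0.14 (SE, adjusted p = 0.362 in limma), Irf1 by -0.41 and the monocyte chemokine gene Ccl2 by -0.999 ± 0.26 (SE). Irf1 overlapped between genotypes and was past the unadjusted threshold in 8 of 14 alternatives. Icam1 was 11.43, 11.44 and 11.24 without cre and 10.51, 10.87, 11.09 and 10.88 with cre. The controls were all above the LysM+/cre arrays. The mean of the 28 genes ranged from 9.55 to 10.26 without cre and from 9.59 to 10.08 with cre, so the genotypes overlapped in this mean. The overlap came from LysM+/+ array 2, and the other controls, at 10.26 and 10.14, lay above all LysM+/cre arrays.

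Several members are also early-response genes, so immediate early genes were described beside them. Of 19 such genes 18 were lower with cre, 8 of them at an unadjusted limma p under 0.05 (42.1%, against 4.93% of all genes lower at that threshold), with a median of -0.47. Egr1 (-1.29), Ier5 (-0.30) and Jun (-0.72) had the smallest p-values. Without LysM+/+ array 2 the count was 17 lower, 5 of them past the threshold, and the median -0.27. Of all 22180 genes 1000 were lower and past the threshold without that array. The mean of the 19 genes was 9.74 to 10.28 on the LysM+/+ arrays and 9.20 to 9.60 on the LysM+/cre arrays, without overlap, which is the direction of Nfkbiz, Tnfaip3 and Nfkbid and opposite to that of Ier3. The part of sorting or dissociation in these values was not tested.

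**Figure D4:**
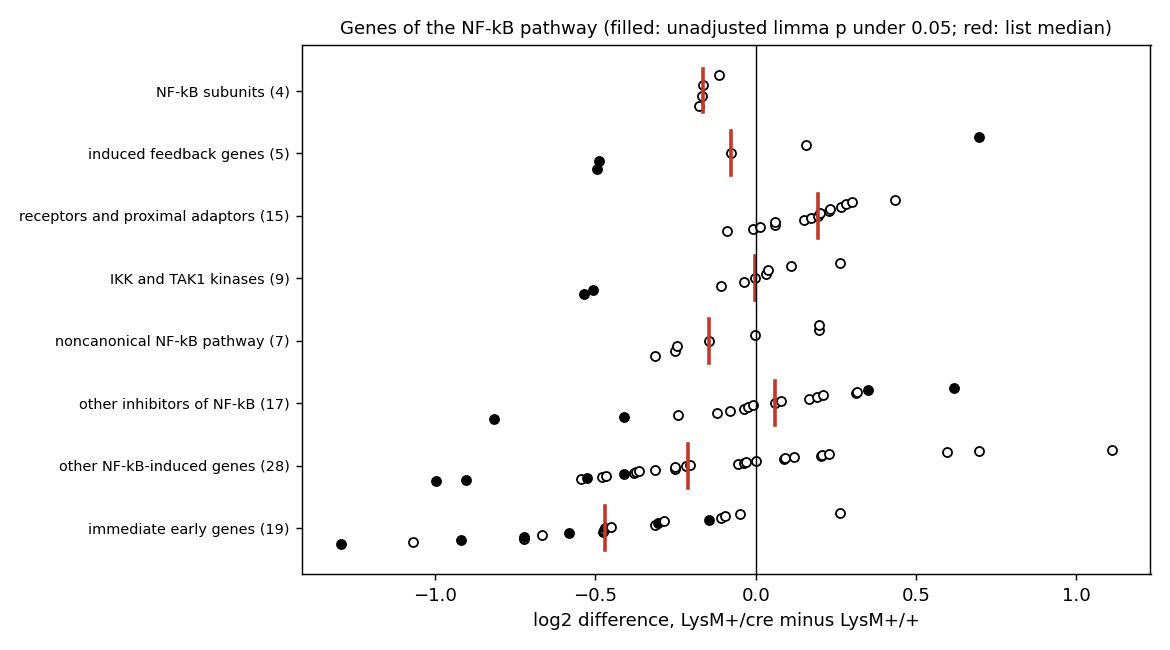
Log2 difference, LysM+/cre minus LysM+/+ (x axis), of each measured gene of the NF-kB pathway and of immediate early genes, 1 row per list with the number measured. Filled points have an unadjusted limma p under 0.05 and red bars mark list medians, which lie at -0.17 for subunits, 0.19 for receptors and adaptors and -0.47 for immediate early genes.

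Markers of other cells differed along with some of these results. The mean of 5 monocyte markers was 6.53 to 7.36 on the LysM+/+ arrays and 7.88 to 8.65 on the LysM+/cre arrays, without overlap and in the direction of Ier3 and Otulin. All 5 were higher with cre, but 0 of them separated the genotypes alone. Only 1 of 5, Ly6c2 (1.09), had an unadjusted limma p under 0.05 (20%, against 11.5% of all genes), and the largest difference was that of Chil3 (2.36). Chil3 was lowest on LysM+/+ array 2 (3.34) and highest on LysM+/cre array 3 (9.56), while LysM+/+ array 1 (7.06) lay above the other LysM+/cre arrays. All 5 markers were still higher without LysM+/+ array 2, and 0 of them were then past the threshold. The mean of 10 fibroblast markers was 7.34 to 7.67 without cre and 6.83 to 7.33 with cre, separate by a narrow margin and in the direction of Nfkbiz, Tnfaip3 and Icam1. The list was split, with 8 markers lower and 2 higher, and 4 of the lower had an unadjusted limma p under 0.05 (40%, against 4.93% of all genes lower). Dcn fell most (-1.38) and was the 1 marker without overlap, while the collagen genes Col1a1 (0.037) and Col3a1 (0.17) were higher. Neutrophil markers overlapped (5.88 to 7.98 and 7.09 to 9.20), as did 10 epithelial (6.87 to 8.36 and 7.10 to 8.14), 8 endothelial (5.56 to 6.36 and 5.74 to 5.91), 9 T and B cell (5.63 to 5.85 and 5.47 to 5.93) and 6 dendritic cell markers (6.97 to 7.59 and 6.27 to 7.52). All 11 neutrophil markers nevertheless had higher means with cre, with a median of 0.65. Without LysM+/+ array 2, 7 were higher and 4 lower, with a median of 0.044. Lower means with cre were found for 9 of 10 epithelial, 7 of 8 endothelial and 5 of 6 dendritic cell markers. Without LysM+/+ array 2 these counts were 5, 7 and 5. Of the 9 T and B cell markers 5 were higher and 4 lower, and 3 had an unadjusted limma p under 0.05 (33.3%, against 11.5% of all genes). They were Cd3d (0.21), Cd79b (0.39, without overlap) and Cd4 (-0.70). The part of such cells in the results was not tested. In sorted bulk samples, fewer cells that carry an RNA and less of it per cell cannot be told apart.

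Genes with the most similar pattern over the 7 arrays were named by Pearson's r, as a description with no p. For Ier3 these were Ube2l3 (r = 0.98), a ubiquitin-conjugating enzyme gene, Msra (0.98), Psmc4 (0.98), a proteasome ATPase gene, Cand1 (0.98) and Arf1 (0.98). With 7 arrays in 2 groups such values do not single these genes out, since 176 of 17243 genes compared had an r above 0.9 with Ier3. For the mean of the 5 feedback genes they were Tbc1d8b (0.97), Src (0.96), Rbpms (0.95), Tnfsf9 (0.95), which encodes the ligand of 4-1BB, and Gbp5 (0.94), and 40 of 17239 genes lay above 0.9. The differences of these genes between genotypes ran from -0.41 for Tnfsf9 to 0.44 for Psmc4, with Src at -0.0052 and Tbc1d8b at -0.037.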

How the data were processed

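Total RNA of 7 sorted samples was hybridised, 1 array each. The table deposited by the authors holds a log2 intensity for each probe set. Affymetrix Expression Console made it, as the design text states, and Transcriptome Analysis Console appears in the submitters' processing notes. Versions, summarisation, background correction and genome build: not given in the sources used. The log2 scale was read from the numbers, and normalization between arrays is not stated. The platform annotation gave a single symbol for 23521 of 41345 probe sets, and the one of highest mean was kept for each of 22180 genes. Genotypes were compared over all genes with limma 3.58.1 in R 4.3.3 (lmFit, eBayes), two-sided, with Benjamini-Hochberg adjustment at 0.05. The code was tested on simulated data. Exact permutation tests used all 35 divisions of the arrays into 3 and 4. The members and lists were chosen with earlier results of these data known. Named were all members, the 3 genes of smallest p in each other pathway list, Rictor, Lyz2 and the 5 genes most like Ier3 or the feedback mean. Otulin, Nfkbid and Tnip3 are such genes. Il6, Ptgs2 and the cell type markers were named outside this rule. Lyz2, the site of cre, differed by -0.13 ± 0.13 (SE, adjusted p = 0.722). Promoter sequences are from RefSeq (GRCm38.p6). The alternatives tried were 2 other scalings, a filter on dim genes, probe set means, variance models, array weights, linear means, a replicate block and leaving out each array. Figures used matplotlib 3.10.9.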

Additional observations from a re-analysis of the deposited data

Results flagged for a closer look

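On the LysM+/cre arrays Rictor had 1 array far from the other 3, at 8.25 on LysM+/cre array 3. It was the 1 case among 32 sets of LysM+/cre values examined this way, and chance gives about 1 in 20.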

How the results depend on the processing

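All 9 members kept the sign of their difference under all 15 alternatives, with 0 past an adjusted p of 0.05 in the 14 that give a p (smallest adjusted p = 0.153, for Ier3). The number of all genes past it was 0 in each of the 14. The number of members at an unadjusted p under 0.05 was 3 as reported, 4 after quantile normalization (Relb added) and 2 to 3 when 1 array was left out. Nfkbiz and Ier3 were past it in all 14, Tnfaip3 in 9, not without LysM+/+ replicate 1 or 3 or LysM+/cre replicate 1, 2 or 4. Rela passed it without LysM+/+ replicate 3 and Bcl3 without LysM+/+ replicate 1. The gap between class medians was 0.089 and lay between -0.0077 and 0.12 with single arrays left out, reversing without LysM+/+ replicate 2. The Rictor difference ranged from -0.0040 to 0.17, reversing without LysM+/cre replicate 3.

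With the replicate block the gap was 0.12 and 3 members were past the unadjusted threshold, the same 3 genes. Deviations of same-numbered arrays correlated at -0.11, 0.12 and 0.10, and LysM+/+ array 1 correlated best with LysM+/cre array 3 (0.24), so the numbers are not taken as pairs. The block leaves LysM+/cre array 4 without a partner. The small number of arrays limits all values.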
